A study of Mus musculus with 12 samples.

Results

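The mitochondrial genome of the mouse was read here as 37 of the 52962 genes in the deposited gene table, chosen as every gene that the table places on chromosome MT. They comprised 13 protein-coding genes, 2 ribosomal RNA genes and 22 transfer RNA genes, and the 3 classes were kept apart throughout. The 12 libraries were made from rods, the retinal neurons of dim-light vision, in a mouse study that asked whether the kinase CK2 alters transcription controlled by NRL, the factor that specifies rods. Retinas were electroporated with plasmids, cells were dissociated with papain at postnatal day 8, and GFP-positive rods were picked by hand, with 50 to 100 cells in each library. Total RNA was made into stranded libraries with a low-input kit and sequenced from paired ends. The sources used here do not state whether ribosomal cDNA was depleted.

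The shRNA mCsnk2a1 group received a short hairpin RNA against mouse Csnk2a1, which encodes the catalytic alpha subunit of CK2, and the shRNA Control group received a control hairpin. The pcDNA4c mCsnk2a1 group received mouse Csnk2a1 in the expression vector pcDNA4c, and the pcDNA4c Control group received the control vector. Each of the 4 groups had 3 libraries, numbered 1 to 3, and all of them shared electroporation, dissociation, GFP and the picking of cells. The sources used here name no mouse strain. Nothing in the labels says that the 3 libraries of a group came from separate animals, so the p-values reflect only how far libraries of a group spread. Below, knockdown is shRNA mCsnk2a1 against shRNA Control, and overexpression is pcDNA4c mCsnk2a1 against pcDNA4c Control; both words name the construct.

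The mitochondrial genome is a small circle present in many copies per cell. It encodes core subunits of the respiratory chain and of ATP synthase, together with the ribosomal and transfer RNAs needed to translate them inside the organelle. Both strands are transcribed into long precursors, from which most ribosomal and messenger RNAs are freed by cutting out the transfer RNAs that lie between them, so the mature RNAs of 1 precursor can still differ in level through processing and decay. Photoreceptors are rich in mitochondria, which are packed into the inner segment and supply the ATP used for ion pumping and phototransduction.

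The 6 transfer RNA genes with the highest counts are shown first, since they carried most of the counts of the class. Sequences are from GENCODE M21 (GRCm38), written 5′ to 3′ in the sense of the RNA, and capitals mark the anticodon, found as the middle 3 bases of a 7-base loop closed by a 5-pair stem. The genes carry glycine (mt-Tg, MT:9391-9458), histidine (mt-Th, MT:11546-11612), valine (mt-Tv, MT:1025-1093), lysine (mt-Tk, MT:7700-7764), methionine (mt-Tm, MT:3845-3913) and asparagine (mt-Tn, MT:5089-5159, the reverse strand).
mt-Tg: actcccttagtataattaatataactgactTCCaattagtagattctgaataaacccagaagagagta
mt-Th: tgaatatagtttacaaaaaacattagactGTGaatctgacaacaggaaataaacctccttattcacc
mt-Tv: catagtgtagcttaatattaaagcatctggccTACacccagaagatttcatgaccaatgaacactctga
mt-Tk: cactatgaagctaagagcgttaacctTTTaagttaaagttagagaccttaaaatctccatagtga
mt-Tm: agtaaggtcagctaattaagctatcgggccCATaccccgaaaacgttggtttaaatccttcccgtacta
mt-Tn: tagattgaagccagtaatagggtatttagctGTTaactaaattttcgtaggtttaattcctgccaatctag

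A block of the nuclear genome decides how 7 of the protein-coding genes can be counted. On chromosome 1, within chr1:24611535-24616197, GENCODE M21 annotates 7 unprocessed pseudogenes on the minus strand that copy mt-Co1, mt-Co2, mt-Atp6, mt-Co3, mt-Nd3, mt-Nd4l and mt-Nd4 at 99.7% to 100% identity. The starts of mt-Nd3 (MT:9459-9518) and of its copy Gm28438 (chr1:24613060-24613119, minus strand) are shown because they hold the single base that differs over the 345 aligned bases. Capitals mark that base, T3C, counted from 1 at the start of mt-Nd3, with the mitochondrial base first. The starts of mt-Co2 (MT:7013-7072) and of its copy Gm28661 (chr1:24615506-24615565, minus strand) are shown because the pair is identical over all 681 bases of the copy, so that no read within the shared stretch can tell them apart.
mt-Nd3: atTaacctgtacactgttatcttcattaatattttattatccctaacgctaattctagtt
Gm28438: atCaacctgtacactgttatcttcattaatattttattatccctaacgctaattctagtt
mt-Co2: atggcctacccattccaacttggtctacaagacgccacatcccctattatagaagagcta
Gm28661: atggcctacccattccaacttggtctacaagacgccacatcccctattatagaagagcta

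Summed estimated counts ran from 2840426 to 3567121 in shRNA mCsnk2a1, from 1608926 to 1856775 in shRNA Control, from 2296056 to 3551328 in pcDNA4c mCsnk2a1 and from 1692419 to 2017623 in pcDNA4c Control. The rod label was checked on 13 rod markers, all of which had counts in each group and which summed to 13731 to 16045 CPM (estimated counts scaled to a fixed library total) in shRNA mCsnk2a1, 6384 to 9027 CPM in shRNA Control, 6402 to 13836 CPM in pcDNA4c mCsnk2a1 and 6510 to 8250.5 CPM in pcDNA4c Control. Genes detected after thinning to equal depth were 16952 to 20042 in shRNA mCsnk2a1, 20352 to 22096 in shRNA Control, 15336 to 18391 in pcDNA4c mCsnk2a1 and 22396 to 25230 in pcDNA4c Control, without overlap in either arm. A list of 12 microglia and macrophage markers summed to 10.2 to 37.9 CPM in shRNA mCsnk2a1, 58.9 to 79.4 CPM in shRNA Control, 36.3 to 83.5 CPM in pcDNA4c mCsnk2a1 and 2720 to 3256 CPM in pcDNA4c Control. C1qa and Tyrobp were at 0 in the first 3 of these groups, and all 12 markers had counts in pcDNA4c Control, so those libraries stood apart from the other 9. Other lists differed without overlap too: Müller glia markers summed to 963 to 1577 CPM in shRNA mCsnk2a1 against 459 to 858 CPM in shRNA Control, and to 485 to 654 CPM in pcDNA4c mCsnk2a1 against 1173 to 1457 CPM in pcDNA4c Control. Amacrine and horizontal cell markers summed to 376 to 530 CPM in shRNA mCsnk2a1 against 198 to 367 CPM in shRNA Control, and to 390 to 655 CPM in pcDNA4c mCsnk2a1 against 128 to 187 CPM in pcDNA4c Control. Bipolar cell markers summed to 975 to 1171 CPM in pcDNA4c mCsnk2a1 against 358 to 510.2 CPM in pcDNA4c Control. The part of these markers, and of the number of genes detected, in the results below was not tested. Csnk2a1 itself had 12.0, 22.2 and 36.0 CPM in shRNA mCsnk2a1 libraries against 66.9, 57.2 and 8.51 CPM in shRNA Control libraries, and 49.9, 145 and 122 CPM in pcDNA4c mCsnk2a1 libraries against 86.6, 24.998 and 28.3 CPM in pcDNA4c Control libraries. The Csnk2a1 levels overlapped in both arms, with edgeR adjusted p = 0.905 for knockdown and 0.801 for overexpression. In such bulk samples, fewer cells of a type and less RNA per cell cannot be told apart.

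The mitochondrial protein-coding class, which encodes subunits of complexes I, III, IV and V, made up a larger share of the counts in pcDNA4c mCsnk2a1 than in any other group. Its share, with the nuclear copies added, was 2.47%, 3.11% and 3.65% in pcDNA4c mCsnk2a1 libraries and 1.33%, 1.47% and 1.13% in pcDNA4c Control libraries. The groups did not overlap, and the ratio of means was 2.35 (two-sided exact permutation p = 0.1, the smallest that 3 against 3 libraries allow). In the knockdown arm the share was 1.62%, 1.79% and 1.70% in shRNA mCsnk2a1 libraries and 1.78%, 1.68% and 1.59% in shRNA Control libraries, which overlapped (exact permutation p = 0.7). The lowest pcDNA4c mCsnk2a1 library, at 2.47%, lay above the highest of the other 9, at 1.79%. The members alone gave the same picture, at 2.55% ± 0.318 in pcDNA4c mCsnk2a1 against 1.14% ± 0.151 in pcDNA4c Control, and at 1.30% ± 0.123 in shRNA mCsnk2a1 against 1.32% ± 0.0795 in shRNA Control (SD, n = 3 each).

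The ribosomal RNA class, 12S and 16S, held most of the mitochondrial counts and was higher with the Csnk2a1 hairpin than with its control. Its share was 10.2%, 8.74% and 9.47% in shRNA mCsnk2a1 libraries and 7.16%, 6.99% and 7.41% in shRNA Control libraries. The groups did not overlap, with a ratio of means of 1.32 (exact permutation p = 0.1). The summed rod markers were also without overlap higher in shRNA mCsnk2a1, as given above. In the overexpression arm the share was 7.34%, 8.91% and 9.95% in pcDNA4c mCsnk2a1 libraries and 6.96%, 7.37% and 6.34% in pcDNA4c Control libraries, a ratio of 1.27 with 1 library of each group overlapping (exact permutation p = 0.2).

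Transfer RNAs were a trace of every library, and their share set pcDNA4c Control apart. It was 0.00263%, 0.00289% and 0.00344% in pcDNA4c mCsnk2a1 libraries against 0.0156%, 0.0109% and 0.0114% in pcDNA4c Control libraries, a ratio of means of 0.237 (exact permutation p = 0.1). With the hairpin it was 0.00434%, 0.00417% and 0.00490% in shRNA mCsnk2a1 libraries against 0.00257%, 0.00188% and 0.00313% in shRNA Control libraries, a ratio of 1.77 (exact permutation p = 0.1). Neither pair of groups overlapped. The lowest pcDNA4c Control library, at 0.0109%, was above the highest of the other 9, at 0.00490%, and the pcDNA4c mCsnk2a1 libraries lay within the range of the shRNA libraries. The 3 high libraries were the same that carried the microglia markers, whose part in this result was not tested.

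**Figure D1:**
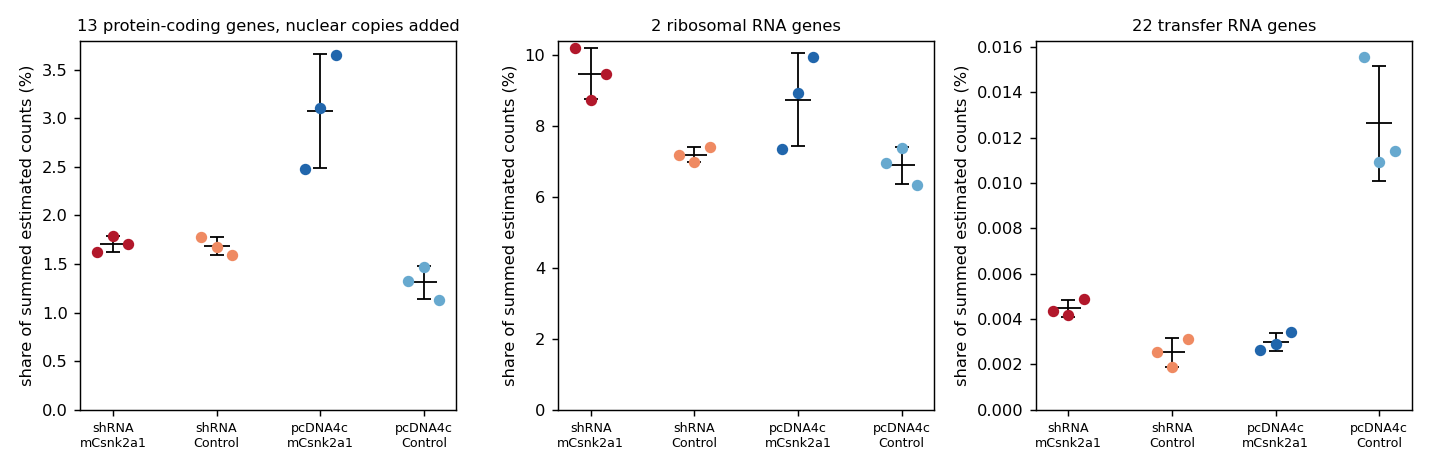
Share of all estimated counts (percent, linear axes from 0) held by the mitochondrial protein-coding, ribosomal RNA and transfer RNA classes, with points for the 3 libraries of each group and bars for mean ± SD. The protein-coding share was highest in pcDNA4c mCsnk2a1, the ribosomal share was higher in shRNA mCsnk2a1 than in shRNA Control, and the transfer RNA share was highest in pcDNA4c Control.

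The balance between classes moved in opposite directions in the arms. With copies added, the ratio of protein-coding to ribosomal RNA counts was 0.337, 0.349 and 0.367 in pcDNA4c mCsnk2a1 libraries and 0.190, 0.199 and 0.179 in pcDNA4c Control libraries, a log2 difference of 0.89. In the knockdown arm it was 0.159, 0.205 and 0.180 in shRNA mCsnk2a1 libraries and 0.249, 0.240 and 0.215 in shRNA Control libraries, a log2 difference of -0.37. The groups did not overlap in either arm (exact permutation p = 0.1 each). For the members alone the overexpression effect minus the knockdown effect was 1.24 on the log2 scale, with a permutation p of 0.005 (the smallest that the 400 regroupings within arms can give) and 0.0125 after Benjamini-Hochberg adjustment over 5 measures.

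The same difference between arms was 1.19 for the protein-coding share (permutation p = 0.04, adjusted 0.0667), -0.06 for the ribosomal RNA share (permutation p = 0.855), -2.90 for the transfer RNA share (permutation p = 0.005, adjusted 0.0125) and 0.38 for the ratio of 12S to 16S (permutation p = 0.27, adjusted 0.338). Past the threshold were thus the transfer RNA share and the ratio of protein-coding to ribosomal RNA. Regrouping within arms assumes no effect in either arm, so it cannot decide whether the effects of the arms were unequal. Groups that lie apart in opposite directions in the arms always reach the smallest p, so the p of 0.005 restates that lack of overlap. For the transfer RNA share, the mean of shRNA Control was 0.200 of that of pcDNA4c Control.

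Within the ribosomal class, the ratio of 12S to 16S counts separated the pcDNA4c groups and was almost constant within each of them. It was 0.634, 0.635 and 0.634 in pcDNA4c mCsnk2a1 libraries and 0.422, 0.418 and 0.422 in pcDNA4c Control libraries, a ratio of means of 1.51 (exact permutation p = 0.1). The shRNA libraries spread far more, with 0.9204, 1.20 and 1.30 in shRNA mCsnk2a1 and 0.917, 0.991 and 1.05 in shRNA Control, which overlapped (exact permutation p = 0.3). Between the control groups the ratio was 0.985 ± 0.0662 in shRNA Control and 0.421 ± 0.00241 in pcDNA4c Control (SD, n = 3 each), a 2.34-fold difference (exact permutation p = 0.1). On the log2 scale that gap was 1.23, set beside 0.59 for overexpression and 0.21 for knockdown.

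**Figure D2:**
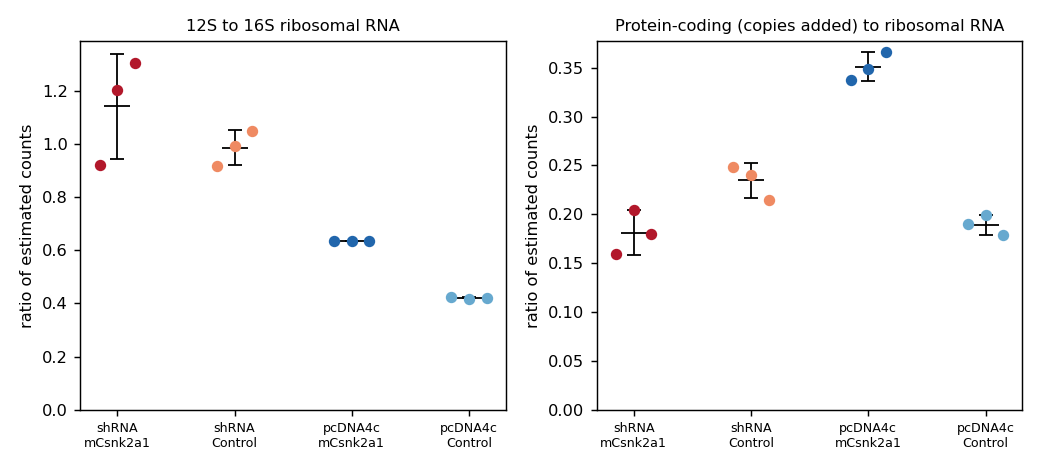
Ratios of estimated counts in each library (points) with mean ± SD (bars), on linear axes from 0, for 12S to 16S ribosomal RNA and for protein-coding genes with nuclear copies to ribosomal RNA. The 12S to 16S ratio lay between 0.418 and 0.422 in pcDNA4c Control and between 0.917 and 1.30 in the shRNA libraries, and the protein-coding to ribosomal ratio was highest in pcDNA4c mCsnk2a1.

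mt-Rnr1 (ENSMUSG00000064337, MT:70-1024), the 12S RNA of the small mitochondrial ribosomal subunit, was higher in pcDNA4c mCsnk2a1 than in pcDNA4c Control. It had 28577, 38510 and 42617 CPM in pcDNA4c mCsnk2a1 libraries and 20517, 21582 and 17626 CPM in pcDNA4c Control libraries. CPM are TMM-scaled, as for the markers above, here and below unless another scale is named. Every pcDNA4c mCsnk2a1 library was above every pcDNA4c Control library, and pcDNA4c Control was the lowest group. The shRNA Control libraries, at 32988 to 36211 CPM, lay within the range of pcDNA4c mCsnk2a1. The fitted log2 change of mt-Rnr1 over pcDNA4c Control was 0.88 (SE 0.12, adjusted p = 0.00350 by edgeR). The call held without any 1 of the 12 libraries and was lost with DESeq2 (adjusted p = 0.0729), limma voom (adjusted p = 0.752) and a fit to only the 6 libraries (adjusted p = 0.404). With the hairpin, mt-Rnr1 had 52073, 52334 and 58473 CPM in shRNA mCsnk2a1 libraries and 32988, 33306 and 36211 CPM in shRNA Control libraries. As with overexpression, these groups did not overlap, and the log2 difference of 0.67 (SE 0.12) missed the threshold (adjusted p = 0.352 by edgeR). It passed with limma voom (adjusted p = 0.0377), with no filter on low counts, and without pcDNA4c mCsnk2a1 1, pcDNA4c mCsnk2a1 3 or pcDNA4c Control 2, libraries of the other arm, whose removal also changed which genes passed the filter. In a fit to only the 6 libraries its adjusted p was 0.0531 as deposited and 0.0327 with copies added.

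mt-Rnr2 (ENSMUSG00000064339, MT:1094-2675) is the 16S RNA of the large subunit and follows mt-Rnr1 and mt-Tv on the same strand. It had 45107, 60645 and 67175 CPM in pcDNA4c mCsnk2a1 libraries and 48590.3, 51642 and 41780.3 CPM in pcDNA4c Control libraries, which overlapped (log2 difference 0.28, SE 0.13, adjusted p = 0.568 by edgeR). In the knockdown arm it had 56579, 43598 and 44896 CPM in shRNA mCsnk2a1 libraries and 35986, 33624 and 34526 CPM in shRNA Control libraries. There every hairpin library was above every control, with a log2 difference of 0.48 (SE 0.13, adjusted p = 0.598 by edgeR). Without pcDNA4c mCsnk2a1 1 the 16S RNA passed the threshold in both arms.

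The control groups differed in the ribosomal RNAs as well. mt-Rnr1 was 34168 ± 1776 CPM in shRNA Control and 19908 ± 2047 CPM in pcDNA4c Control (SD, n = 3 each), a log2 difference of 0.78 (SE 0.12, adjusted p = 0.00962 by edgeR). This was the only mitochondrial gene past the threshold between control groups, where 0.0691% of all genes tested were called, 0.0148% as higher, and it was lost with DESeq2 and with limma voom. mt-Rnr2 went the other way, with 34712 ± 1192 CPM in shRNA Control and 47338 ± 5049 CPM in pcDNA4c Control and no overlap (log2 difference -0.45, adjusted p = 0.847 by edgeR).

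The deposited estimated counts of several protein-coding genes were split between the gene and its nuclear copy. Over the 12 libraries mt-Co2 had 6932 counts and Gm28661 61914, mt-Co3 had 4869 and Gm28437 26521, and mt-Nd3 had 6.55 and Gm28438 5144. mt-Atp6 had 38856 counts and Gm10925 22158, and mt-Nd4l had 3786 and Gm10222 843. By contrast, mt-Co1 kept 127550 counts against 172 for Gm29216, and mt-Nd4 kept 43708 while Gm28439 had less than 1 count.

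How a pair was divided changed from library to library. mt-Co2 had 1290, 15.04 and 13.4 counts in shRNA mCsnk2a1 libraries, 1973, 7.67 and 578 in shRNA Control, 2134, 6.07 and 12.1 in pcDNA4c mCsnk2a1 and 888, 9.08 and 5.23 in pcDNA4c Control. In every group library 1 thus held most of the counts assigned to mt-Co2. Of the sum of gene and copy, mt-Co2 had between 0.0528% and 46.5% with a median of 0.280%, mt-Atp6 between 0.142% and 100% with a median of 98.8%, and mt-Co3 between 10.6% and 25.3% with a median of 15.99%. mt-Nd3 had a count in 1 library only and did not pass the filter on low counts as deposited.

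For mt-Co2, mt-Atp6 and mt-Co3, the sum of gene and copy varied less within each group than the gene alone, by little in mt-Atp6 of pcDNA4c Control and mt-Co3 of shRNA Control. The coefficient of variation between the 3 libraries of a group was 4.40% to 23.8% for mt-Co2 with its copy, against 115% to 172% for mt-Co2 alone. For mt-Atp6 it was 7.38% to 17.9% with the copy, against 18.2% to 92.5% alone. For mt-Co3 it was 5.27% to 22.8% with the copy, against 12.0% to 52.3% alone. For mt-Nd4l it was 27.2% with the copy against 69.1% alone in shRNA mCsnk2a1, and 13.9% against 59.3% in shRNA Control. In the other groups of mt-Nd4l it was unchanged, at 48.3% both ways in pcDNA4c mCsnk2a1 and 7.30% both ways in pcDNA4c Control. For mt-Co1 in pcDNA4c Control it was 13.8% with the copy and 13.3% alone. Levels and changes of the protein-coding genes are therefore given below with the copies added, a choice made after these values had been seen, and the deposited values are given where they differ. Which of the copies was transcribed was not tested.

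**Figure D3:**
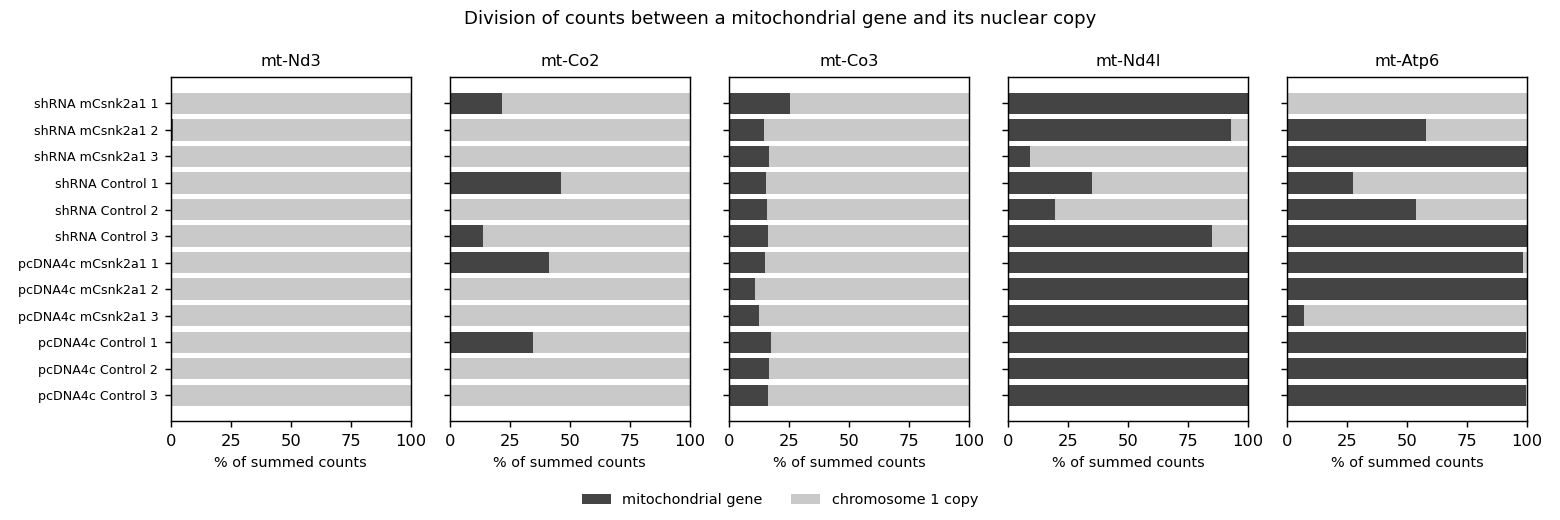
Division of the summed estimated counts of gene and nuclear copy (percent, axis 0 to 100), with 1 stacked bar per library, for mt-Nd3, mt-Co2, mt-Co3, mt-Nd4l and mt-Atp6. The dark part was assigned to the mitochondrial gene and the grey part to its copy on chromosome 1. mt-Nd3 stayed below 1% in every library, while mt-Co2 and mt-Atp6 jumped between libraries of the same group.

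Levels between genes were compared per length, in TPM, a unit corrected for transcript length, with copies added. mt-Atp8, the small ATP synthase subunit, ranked first of the 13 in every group, at 3832 TPM in shRNA mCsnk2a1, 4181 in shRNA Control, 7101 in pcDNA4c mCsnk2a1 and 2157 in pcDNA4c Control. mt-Co2 ranked second, mt-Atp6 the third, mt-Nd1 sixth and mt-Co3 seventh in all 4 groups, and mt-Cytb and mt-Co1 shared ranks 4 and 5. mt-Nd6, the 1 protein-coding gene on the reverse strand, ranked 12 or 13 in every group, at 105 ± 64.1, 136 ± 27.7, 345 ± 95.6 and 173 ± 23.3 TPM in the same order of groups (SD, n = 3 each). The rank of mt-Atp8 depends on how the authors' pipeline treats short transcripts, since its effective length was 0.0719 of that of mt-Rnr1 while its annotated length is 0.214 of it.

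**Figure D4:**
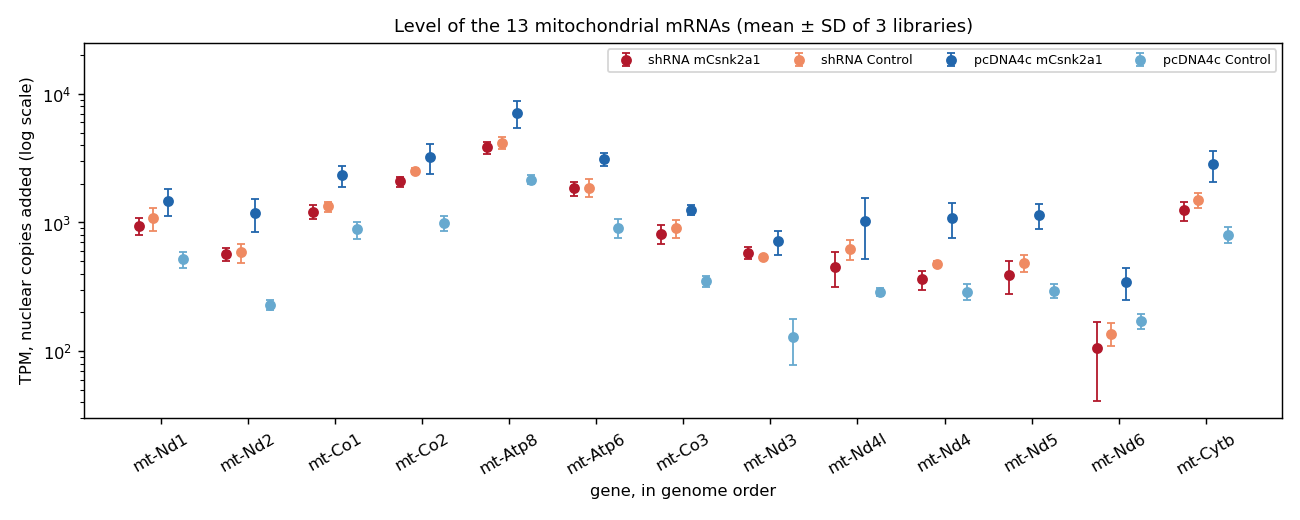
Level of each of the 13 protein-coding genes with nuclear copies added (TPM, log axis) in genome order, as mean ± SD of 3 libraries per group. pcDNA4c mCsnk2a1 was the highest group for each of the 13 genes, and mt-Atp8 was the highest gene in every group.

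In the overexpression comparison, all 13 protein-coding genes with copies added had every pcDNA4c mCsnk2a1 library above every pcDNA4c Control library, and 8 of them passed the threshold, all higher. Over all genes tested, 3.73% had groups that did not overlap in that direction, and 0.114% passed the threshold, 0.074% as higher. The median log2 change of the 13 genes was 1.46, with a range of 0.65 to 2.12, against a median of -0.16 over all genes, and the 13 changes were positive under every scaling, filter and tool tried. Of the genes as deposited, 12 of 13 passed the filter on low counts, 10 of those had all pcDNA4c mCsnk2a1 libraries higher, and 5 passed the threshold (mt-Nd2, mt-Co1, mt-Nd4, mt-Nd5 and mt-Cytb), where 0.0987% of all genes passed, 0.0641% as higher. mt-Co2, mt-Atp6 and mt-Co3 were called only with their copies added. For 8 of the 13 genes (mt-Nd2, mt-Co1, mt-Atp8, mt-Atp6, mt-Nd4, mt-Nd5, mt-Nd6 and mt-Cytb) the lowest pcDNA4c mCsnk2a1 library was also above all 9 other libraries, where 0.627% of all genes were. The part of the microglia markers in the overexpression calls was not tested.

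The counts of calls depended on which libraries were in the fit. Leaving out any 1 shRNA library kept 8 calls with copies added and 5 as deposited. Leaving out pcDNA4c mCsnk2a1 1 gave 9 and 6. With copies added, 4 genes passed without pcDNA4c mCsnk2a1 2 or without pcDNA4c mCsnk2a1 3, 3 without pcDNA4c Control 1 or without pcDNA4c Control 3, and none in a fit to only the 6 libraries of the comparison, in which 6 genes of the whole table passed. As deposited, the counts were 3 without pcDNA4c mCsnk2a1 2 or 3, 2 without pcDNA4c Control 1 or 3, and 0 with only the 6 libraries. mt-Nd2 and mt-Cytb passed without any 1 of the 12 libraries. mt-Nd5 did so with its copies-added fit, and as deposited lost the call without pcDNA4c Control 1 or 3.

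Complex I, the proton-pumping NADH dehydrogenase at the entry of the respiratory chain, has 7 subunits encoded here. mt-Nd2 (MT:3914-4951), a membrane subunit, had 1393, 2409.8 and 2543 CPM in pcDNA4c mCsnk2a1 libraries and 589, 519 and 471 CPM in pcDNA4c Control libraries. It was the called gene with the largest change, with a log2 value of 2.01 (SE 0.29, adjusted p = 0.00312 by edgeR), and its lowest value in pcDNA4c mCsnk2a1 was above all of the other 9 libraries. mt-Nd5 (MT:11742-13565) had 2937, 4167 and 4850.3 CPM in pcDNA4c mCsnk2a1 libraries and 1414, 1456 and 1087 CPM in pcDNA4c Control libraries, a log2 change of 1.60 (SE 0.26, adjusted p = 0.01002 by edgeR). mt-Nd4 (MT:10167-11544) had 1868, 2759.7 and 3609 CPM in pcDNA4c mCsnk2a1 libraries and 1017, 1047 and 757 CPM in pcDNA4c Control libraries. Its log2 change was 1.55 (SE 0.27, adjusted p = 0.0209 by edgeR), and the call was lost without any 1 of pcDNA4c mCsnk2a1 2, pcDNA4c mCsnk2a1 3 and the 3 pcDNA4c Control libraries.

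The other 4 complex I genes did not pass. mt-Nd3 with its copy had 188, 300.4 and 233 CPM in pcDNA4c mCsnk2a1 libraries and 39.9, 80.5 and 45.4 CPM in pcDNA4c Control libraries, the largest fitted difference of the 13 at 2.12 on the log2 scale (SE 0.49, adjusted p = 0.187 by edgeR). mt-Nd1 averaged 2392 ± 605 CPM in pcDNA4c mCsnk2a1 and 1075 ± 186 CPM in pcDNA4c Control (log2 difference 1.15, SE 0.26, adjusted p = 0.183 by edgeR). mt-Nd4l with its copy averaged 263 ± 135 CPM in pcDNA4c mCsnk2a1 and 93.8 ± 9.83 CPM in pcDNA4c Control (log2 difference 1.49, SE 0.52, adjusted p = 0.567 by edgeR). Its last 7 bases overlap the start of mt-Nd4, with which it shares a transcript.

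mt-Nd6 (ENSMUSG00000064368, MT:13552-14070, reverse strand) stood at the low end of the 13. It had 239, 297 and 166 CPM in pcDNA4c mCsnk2a1 libraries and 131, 156 and 162 CPM in pcDNA4c Control libraries. The groups were just apart, at 166 and 162 CPM, and the log2 difference was 0.65 (SE 0.54, adjusted p = 0.849 by edgeR). In the knockdown arm it had 61.6, 130.05 and 44.6 CPM in shRNA mCsnk2a1 libraries and 81.9, 89.95 and 63.6 CPM in shRNA Control libraries, which overlapped (log2 difference 0.01, SE 0.54). mt-Nd6 lies opposite the precursor of the forward strand and overlaps mt-Nd5 by 14 bases. The sources used here do not state whether the counting used strand, so reads of either strand at this place may not have been told apart.

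Complex III, cytochrome bc1, has 1 subunit encoded here, cytochrome b. mt-Cytb (MT:14145-15288) had 3931, 6088 and 7125 CPM in pcDNA4c mCsnk2a1 libraries and 2061, 2451 and 1739 CPM in pcDNA4c Control libraries. All pcDNA4c mCsnk2a1 libraries were above the other 9, and the log2 change was 1.46 (SE 0.23, adjusted p = 0.00685 by edgeR).

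Complex IV is cytochrome c oxidase, which passes electrons to oxygen, and its 3 subunits encoded here form the catalytic core. mt-Co1 (MT:5328-6872) had 5249, 6790.5 and 8010.4 CPM in pcDNA4c mCsnk2a1 libraries and 3268, 3662 and 2615 CPM in pcDNA4c Control libraries, a log2 change of 1.07 (SE 0.19, adjusted p = 0.0252 by edgeR). mt-Co2 with its copy had 2270.2, 3602 and 4064 CPM in pcDNA4c mCsnk2a1 libraries and 1254, 1520.1 and 1109.8 CPM in pcDNA4c Control libraries, a log2 change of 1.36 (SE 0.24, adjusted p = 0.0190 by edgeR). As deposited, without the copy, the fitted difference of mt-Co2 was 1.08 with an SE of 1.94. In both genes the call was lost without any 1 of pcDNA4c mCsnk2a1 2, pcDNA4c mCsnk2a1 3, pcDNA4c Control 1 and pcDNA4c Control 3.

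mt-Co3 (MT:8607-9390) with its copy had 1367, 1636 and 1663 CPM in pcDNA4c mCsnk2a1 libraries and 568, 623 and 482 CPM in pcDNA4c Control libraries. The groups were well apart, with a log2 change of 1.48 (SE 0.28, adjusted p = 0.0330 by edgeR), and the call was lost without pcDNA4c mCsnk2a1 2, pcDNA4c mCsnk2a1 3 or each pcDNA4c Control library in turn. Most of the counts lay on the copy, and Gm28437 by itself gave a log2 change of 1.55 (SE 0.29, adjusted p = 0.0375 by edgeR). The copy is identical to mt-Co3 over 783 bases and holds most of the same sum, so its change is not a separate result.

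Complex V is ATP synthase, and both of its subunits encoded here belong to the membrane sector. mt-Atp6 (MT:7927-8607) with its copy had 2864, 3039.8 and 3592 CPM in pcDNA4c mCsnk2a1 libraries and 1275, 1396 and 918 CPM in pcDNA4c Control libraries, a log2 change of 1.40 (SE 0.23, adjusted p = 0.0114 by edgeR). All pcDNA4c mCsnk2a1 libraries exceeded the other 9, and the call was lost without pcDNA4c Control 1 or pcDNA4c Control 3. Without the copy, the fitted difference of mt-Atp6 was 0.77 with an SE of 1.03. mt-Atp8 averaged 822 ± 203 CPM in pcDNA4c mCsnk2a1 and 320 ± 35.2 CPM in pcDNA4c Control, and its log2 difference of 1.36 (SE 0.33) missed the threshold (adjusted p = 0.251 by edgeR). It overlaps mt-Atp6 by 43 bases (MT:7927-7969) on the same transcript, so reads there belong to both genes.

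Summed by complex, the pattern was alike across the respiratory chain. Complex I summed to 11975 ± 3172 CPM in pcDNA4c mCsnk2a1 and 4159 ± 599 CPM in pcDNA4c Control, complex IV to 11551 ± 2460 and 5034 ± 800 CPM, and complex V to 3988 ± 583 and 1516 ± 283 CPM in the same order (SD, n = 3 each). The log2 ratios of means were 1.53 for complex I, 1.46 for complex III, 1.20 for complex IV and 1.39 for complex V, and the groups did not overlap in any of them. For knockdown the same ratios were 0.15, 0.13, 0.21 and 0.35. Those groups overlapped for complexes I and III, and were higher in shRNA mCsnk2a1 without overlap for complexes IV and V. For shRNA Control against pcDNA4c Control the ratios were 0.32, 0.29, 0.34 and 0.42, with overlap for complex III only.

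Within the protein-coding pool, the proportions of 7 of the 13 genes overlapped between the overexpression groups and those of 6 did not. mt-Atp8 held 26.5% of the summed TPM of the class in pcDNA4c mCsnk2a1 and 27.0% in pcDNA4c Control. The proportions that did not overlap between these groups were higher for mt-Nd2 (4.36% in pcDNA4c mCsnk2a1 against 2.89% in pcDNA4c Control), mt-Nd3 (2.70% against 1.57%) and mt-Nd5 (4.25% against 3.68%). They were lower for mt-Co1 (8.68% in pcDNA4c mCsnk2a1 against 11.0% in pcDNA4c Control), mt-Nd1 (5.50% against 6.46%) and mt-Nd6 (1.36% against 2.18%). Between shRNA Control and pcDNA4c Control the proportions did not overlap for mt-Nd2, mt-Nd3, mt-Nd4, mt-Nd5, mt-Nd6, mt-Co1, mt-Co2, mt-Co3 and mt-Cytb. The proportions were not tested, and nothing is read from how many did not overlap.

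In the knockdown comparison no mitochondrial gene passed the threshold, in a fit where edgeR called 0% of 20267 genes, 1688 genes had an unadjusted p under 0.05, DESeq2 called 183 genes and limma voom 2. With copies added, the median log2 difference of the 13 protein-coding genes was 0.19, with a range of -0.05 to 0.51, against -0.03 over all genes. Of the 13, 3 had every shRNA mCsnk2a1 library above every shRNA Control library (mt-Atp8, mt-Atp6 and mt-Nd3), where 5.61% of all genes did. mt-Nd3 with its copy had 216, 235 and 205 CPM in shRNA mCsnk2a1 libraries and 158, 144 and 159 CPM in shRNA Control libraries, a log2 difference of 0.51 (SE 0.47, adjusted p = 0.892 by edgeR). mt-Atp6 with its copy had 1924, 2279 and 2055 CPM in shRNA mCsnk2a1 libraries and 1878, 1511 and 1455 CPM in shRNA Control libraries, a log2 difference of 0.37 (SE 0.23, adjusted p = 0.709 by edgeR). The signs of the small differences depended on the scaling of the libraries: by library size alone, mt-Nd1, mt-Nd5, mt-Nd6, mt-Cytb and mt-Co2 with its copy were below 0.

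**Figure D5:**
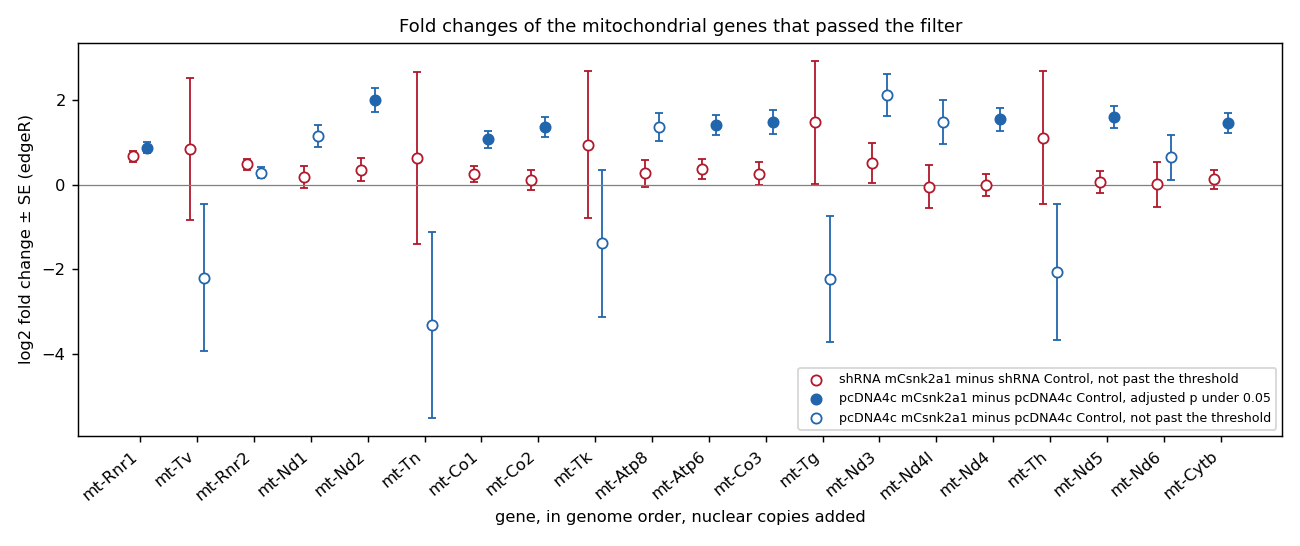
Log2 fold change ± SE from the edgeR fit with nuclear copies added, for the 13 protein-coding genes, the 2 ribosomal RNA genes and the 5 transfer RNA genes that passed the filter, in both comparisons (each Csnk2a1 construct over its control). Filled points passed the adjusted threshold of 0.05; the protein-coding genes lay between 0.65 and 2.12 for overexpression and between -0.05 and 0.51 for knockdown, and the transfer RNAs had the widest errors.

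Gene by gene, the difference between the arms was tested in the edgeR fit. No mitochondrial gene passed for the overexpression effect minus the knockdown effect, where edgeR called 0.0197% of all genes. Without pcDNA4c mCsnk2a1 1, 4 protein-coding genes passed as deposited and 5 with copies added, and DESeq2 called 2 with either. Between the control groups no protein-coding gene passed either, although 8 of 13 were higher in every shRNA Control library than in every pcDNA4c Control library, where 5.13% of all genes were, and mt-Nd6 was lower, where 8.55% were. mt-Nd3 with its copy averaged 154 ± 8.35 CPM in shRNA Control and 55.3 ± 22.04 CPM in pcDNA4c Control, or 1.48 on the log2 scale.

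The 22 transfer RNA genes, 14 on the forward and 8 on the reverse strand, are 59 to 75 bases long and were near the floor of detection. Between 11 and 18 of them had a count in a library, and their summed counts were 123 to 150 in shRNA mCsnk2a1, 30.3 to 52.7 in shRNA Control, 60.4 to 113 in pcDNA4c mCsnk2a1 and 193 to 314 in pcDNA4c Control. mt-Tg held 21.0% of all transfer RNA counts, mt-Th 16.9%, mt-Tv 13.8% and mt-Tk 12.6%, so the sequences shown first account for most of the class. Their effective lengths in the authors' pipeline were 0.0249 to 0.0416 of that of mt-Rnr1, while their annotated lengths are 0.0618 to 0.0785 of it. Whether their reads came from mature transfer RNAs or from longer precursors was not tested.

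Only 5 of the 22 passed the filter on low counts, and pcDNA4c Control was the highest group for each of the 5. mt-Tg had 6.56, 5.01 and 5.71 CPM in pcDNA4c mCsnk2a1 libraries and 49.2, 16.999 and 15.5 CPM in pcDNA4c Control libraries. mt-Th had 3.94, 6.58 and 5.04 CPM in pcDNA4c mCsnk2a1 libraries and 22.6, 19.999 and 23.3 CPM in pcDNA4c Control libraries. All 5 were lower in every pcDNA4c mCsnk2a1 library, as were 11.8% of all genes, but the filter favours genes that are high in 1 group, so nothing is read from that count. None passed the threshold, with log2 differences of -2.23 for mt-Tg, -2.07 for mt-Th, -2.20 for mt-Tv, -1.39 for mt-Tk and -3.32 for mt-Tn (SE 1.49 to 2.19). Among all 22, the mean was lower in pcDNA4c mCsnk2a1 for 18 and higher for 3. The same count over all genes was not made, so nothing is read from it.

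In the knockdown arm 16 of 22 transfer RNA means were higher in shRNA mCsnk2a1 and 4 lower. mt-Tg had 12.4, 12.0 and 8.56 CPM in shRNA mCsnk2a1 libraries and 3.11, 3.57 and 5.11 CPM in shRNA Control libraries, without overlap. mt-Tk had 5.63, 7.08 and 8.91 CPM in shRNA mCsnk2a1 libraries and 3.63, 2.38 and 5.11 CPM in shRNA Control libraries, also without overlap. Of all genes tested, 5.61% were higher without overlap in this arm. The log2 differences of 1.47 for mt-Tg and 0.95 for mt-Tk did not pass (edgeR). Between control groups 20 of 22 means were lower in shRNA Control and none was higher. These counts of means have no count over all genes beside them, so nothing is read from them.

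Both strands took part in the high transfer RNA share of pcDNA4c Control. In CPM of all estimated counts, transfer RNAs of the forward strand summed to 38.3 ± 2.62 in shRNA mCsnk2a1, 21.6 ± 6.05 in shRNA Control, 25.6 ± 3.27 in pcDNA4c mCsnk2a1 and 99.8 ± 22.7 in pcDNA4c Control. Those of the reverse strand summed to 6.36 ± 1.53, 3.73 ± 0.228, 4.28 ± 2.18 and 26.4 ± 3.25 in the same order of groups (SD, n = 3 each).

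A list of 49 nuclear genes that transcribe, cut, modify or degrade mitochondrial RNA was read beside the members. Of the 44 that passed the filter, none passed the threshold in either arm, and the unadjusted p was under 0.05 for 7 in knockdown and 1 in overexpression. The number of all genes with such a p in knockdown is given above, and nothing is read from these counts. Their median log2 difference was 0.17 for overexpression and 0.13 for knockdown, against -0.16 and -0.03 over all genes. By role, the overexpression medians were -0.20 for 14 transcription and replication genes, 0.85 for 18 genes of cleavage, stability and decay, and -0.94 for 12 modification genes. The knockdown medians of the same lists were 0.66, 0.29 and -0.15.

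The 3 genes of the list with the smallest p in knockdown were Polrmt, Trub2 and Angel2. Polrmt, the mitochondrial RNA polymerase, had 147, 25.5 and 164 CPM in shRNA mCsnk2a1 libraries and 2.07, 0 and 9.64 CPM in shRNA Control libraries. Trub2, a pseudouridine synthase, had 23.3, 39.7 and 194 CPM in shRNA mCsnk2a1 libraries and 5.19, 5.36 and 1.70 CPM in shRNA Control libraries. Angel2 had 22.5, 2.46 and 11.8 CPM in shRNA mCsnk2a1 libraries and 40.4, 75.0 and 100.4 CPM in shRNA Control libraries. None of these groups overlapped. Polrmt and Trub2 were higher in shRNA mCsnk2a1, where 5.61% of all genes tested were higher without overlap. Angel2 was lower, and the share of all genes in that direction is not given here. The 3 genes were picked for their small p, so nothing is read from the lack of overlap. The adjusted p was 0.598 by edgeR for each of the 3 genes.

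In the overexpression arm the 3 genes of the list with the smallest p were low or overlapped. Trmt61b, a methyltransferase of mitochondrial RNA, was at 0 in all pcDNA4c mCsnk2a1 libraries and had 6.89, 9.50 and 6.65 CPM in pcDNA4c Control libraries (adjusted p = 0.568 by edgeR). Tefm, the mitochondrial transcription elongation factor, was at 0 in all pcDNA4c mCsnk2a1 libraries and had 10.3, 3.00 and 0 CPM in pcDNA4c Control libraries. Mterf3, known in mice as a brake on mitochondrial transcription, had 121, 44.5 and 70.2 CPM in pcDNA4c mCsnk2a1 libraries and 100.4, 108 and 264 CPM in pcDNA4c Control libraries.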

How the data were processed

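The gene table deposited by the authors holds estimated counts (expected counts, not whole) for 52962 genes in 12 libraries, without normalization between libraries. For 1011 genes of a single transcript with TPM of at least 10 in at least 6 libraries, its values equal TPM times 1 length per gene and 1 constant per library within 1%. The deposited transcript table holds TPM for 141196 transcripts. A further table deposited by the authors gives a scaled CPM signal for 11 libraries, and its gene annotation was used to find the members. It departed from the gene values times 1 constant per library by at most 8.22e-13. Kallisto 0.45.0, edgeR 3.28 and mm10 are named per the submitters' processing notes; their settings and the annotation release are not given in the sources used here. All 37 members and 7 copies had the same position in GENCODE M21.

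Counts were rounded and fitted with edgeR 4.0.16 in R 4.3.3 (quasi-likelihood test over all 12 libraries and 4 groups, TMM scaling, filterByExpr with a minimum count of 10), which tested 20267 genes, or 20262 with nuclear copies added to their members. P-values were Benjamini-Hochberg adjusted over all genes tested, with a threshold of 0.05. The SE is the fold change divided by the square root of F. Fold changes are log2, and where adjusted p-values are printed they come from this fit unless DESeq2 or limma voom is named. Class shares and ratios used unrounded counts and exact permutation tests with scipy 1.17.1. Copies were found with BLAST 2.17.0 (word size 20) as genes matching a member at 99% identity or more over 90% or more of their length. The fit was tested on simulated data.

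Alternatives were DESeq2 1.42.0, voom (limma 3.58.1), other scalings and filters, only the 6 libraries, a replicate block, and leaving out each library. Full values were given for ribosomal RNAs, called protein-coding genes and mt-Nd6, for transfer RNAs that passed the filter or ranked high, and for the 3 genes of smallest p in the machinery list. The members, lists and rule were chosen with earlier results of these data known, and adding copies was chosen after seeing the counts. Depth alone describes counting error only, since no molecular identifiers mark PCR copies.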

Additional observations from a re-analysis of the deposited data

Results flagged for a closer look

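A set of 3 class measures was flagged for a difference between the arms, by regroupings that assume no effect in either arm. The overexpression effect minus the knockdown effect on the log2 scale was 1.24 for the ratio of protein-coding to ribosomal RNA counts and -2.90 for the transfer RNA share (permutation p = 0.005 each, adjusted 0.0125 over 5 measures). For the protein-coding share it was 1.19 (permutation p = 0.04), which missed the threshold after adjustment (0.0667). In the ratio of protein-coding to ribosomal RNA, every pcDNA4c mCsnk2a1 library was above its controls and every shRNA mCsnk2a1 library was below its controls. In the transfer RNA share, every pcDNA4c mCsnk2a1 library was below its controls and every shRNA mCsnk2a1 library was above them. For both measures the permutation p of 0.005 restates this lack of overlap. The causes were not tested.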

How the results depend on the processing

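A test of 3 against 3 libraries cannot give a class share a p under 0.1, and genes at a few counts per library, such as the transfer RNAs, carry wide errors. Of the results on single genes, 1059 kept direction and side of the threshold, 47 lost a call, 17 gained one and 37 changed sign; the causes were not tested. Protein-coding genes called for overexpression were 5 as deposited, 0 with only the 6 libraries, and 2 to 6 leaving out each library; with copies added they were 8, 0, and 3 to 9. For the difference between arms none were called in edgeR's fit, against 4 with no filter, 2 with DESeq2 and 0 to 4 leaving out each library (with copies 5, 2 and 0 to 5). Ribosomal RNA genes called for knockdown were 0, against 2 with no filter, 1 with voom and 0 to 2 leaving out each library; for overexpression they were 1, against 2 with no filter, 0 with DESeq2, voom or only the 6 libraries, and 1 to 2 leaving out each library. With only the 6 libraries and copies added, mt-Rnr1 passed for knockdown (adjusted p = 0.0327).

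Small knockdown differences changed sign. By library size they were -0.0036 for mt-Nd1, -0.13 for mt-Nd5, -0.19 for mt-Nd6, -0.065 for mt-Cytb and -0.076 for mt-Co2 with its copy. By DESeq2 size factors they were -0.012 for mt-Nd5 and -0.085 for mt-Nd6, and in DESeq2 -0.012 and -0.084. Voom gave -1.85 for mt-Atp6, 0.0017 for mt-Nd4, 0.0011 for mt-Nd4 with its copy and -0.089 for mt-Nd6. mt-Nd6 was -0.0081 with no filter, -0.069 with the filter of 50 counts and -0.056 with only the 6 libraries. Leaving out each library gave -0.49 to 0.87 for mt-Atp6, -0.13 to 0.055 for mt-Nd4 with or without its copy, -0.10 to 0.27 for mt-Nd5, -0.56 to 0.29 for mt-Nd6, -0.30 to 0.069 for mt-Nd4l with its copy, -0.074 to 0.052 for the protein-coding share and -0.021 to 0.060 for that share with copies, which was -0.17 by TPM. For overexpression, mt-Co2 as deposited was -0.48 with voom and -5.57 to 6.38 leaving out each library.

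Over all genes, same-numbered libraries did not deviate together, with correlations of -0.0398 to 0.00873 within arms. Such a correlation cannot exclude that the numbers pair libraries. Of the sum of gene and copy, mt-Co2 took its largest share in library 1 of every group, at 21.7% in shRNA mCsnk2a1, 46.5% in shRNA Control, 41.1% in pcDNA4c mCsnk2a1 and 34.8% in pcDNA4c Control. With the replicate block, calls for overexpression stayed at 5 as deposited and 8 with copies, mt-Nd6 in knockdown was -0.090, and mt-Rnr1 in knockdown with copies added passed (adjusted p = 0.0496).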
